A study of Mus musculus with 4 samples.

Results

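Imprinted genes are transcribed mainly from the copy inherited from one parent, and most of them lie in clusters in which a differentially methylated control region sets the active copy of several neighbours. The 39 genes described here were chosen by name, as members of known mouse imprinted clusters, with their FPKM values in these libraries and the differences between genotypes already known. Of the 39 genes, 38 had a row among the 22770 genes of the deposited table, and Phlda2 was not analysed here. The genotype differences of the 38 genes are therefore given as a description of these libraries, and the calls quoted are those of a fit over the whole table.

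RNA came from the dissected cortex of mouse embryos at embryonic day 16.5, with 2 libraries from Pax6 sey/sey mutants and 2 from their wild-type littermates. Both genotypes shared a mixed C57BL/6J, 129S6 and CD1 background, in which allele-specific reads were not separated, so every value sums both parental copies. Sey (small eye) is a point mutation of Pax6, a transcription factor of cortical progenitors, present in every cell of the homozygous embryo. Nothing in the labels ties a library to its own embryo or to a pool, so p-values measure the spread between these libraries, which may be technical.

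FPKM (fragments per kilobase of exon, scaled to the mapped fragments of the library) is a level per length and can be compared between genes, but it keeps no fragment totals, so absolute depth is unknown. Column totals were 579698 to 593256 FPKM, and 13682 to 13875 genes reached 1 FPKM. Pax6 RNA was 100.7 and 120.3 FPKM in the mutants and 28.8 and 27.0 FPKM in the wild types, and since a point mutation leaves a transcript this does not check the genotype labels. Mutant library 1 stood apart in sex-linked RNA, with Xist at 350.1 FPKM, against 0.131 FPKM in mutant library 2 and 0.224 and 0.0788 FPKM in the wild types, and Ddx3y, a Y-linked gene, listed at 0 in it alone. It also had the highest sum of 9 meningeal and fibroblast markers, 33.2 FPKM, against 8.56 FPKM in mutant library 2 and 5.86 and 4.27 FPKM in the wild types. Sums of 6 neuron markers were 1808 and 1729 FPKM in the mutants and 2258 and 2249 FPKM in the wild types, and sums of 5 cortical progenitor markers were 338 and 372 FPKM in the mutants and 192 and 211 FPKM in the wild types. Of those 5, Pax6 itself and Sox2 rose, Sox2 with 78.5 and 93.1 FPKM in the mutants and 25.8 and 22.9 FPKM in the wild types. Hes5, Nes and Vim were not called, with log2 fold changes of 0.42, 0.17 and 0.05, and the Vim values overlapped. The choroid plexus markers summed to 0.368 and 0.811 FPKM in the mutants and 1.84 and 1.07 FPKM in the wild types. Ttr, which alone of them was tested, was 0.112 and 0.491 FPKM in the mutants and 1.56 and 0.871 FPKM in the wild types. It was not called. It reached 0.5 FPKM only in the wild types, so the filter of at least 0.5 FPKM in 2 libraries fixed its direction. Kcne2 went the other way, with 0.219 and 0.320 FPKM in the mutants and 0 and 0.162 FPKM in the wild types. Folr1 was listed at 0 in both mutants and in wild-type library 2. In tissue of mixed cell types, a change in the number of cells that express a gene cannot be told apart from a change in RNA per cell.

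In Pax6 mutant cortex 9 imprinted genes rose and 0 fell: Meg3, Rian, Mirg, H19, Peg10, Asb4, Peg3, Nnat and Grb10. They lie in 6 of the 16 clusters, and their log2 fold changes ran from 0.59 for Nnat to 1.79 for Peg10. Of the 38 genes, 32 passed the filter of at least 0.5 FPKM in 2 libraries and were tested on the log2(FPKM + 0.5) scale with limma over 15399 genes, with a threshold of 0.05 on the Benjamini-Hochberg adjusted p. Over all tested genes 2.02% were called higher and 1.46% lower. At an unadjusted p under 0.05, 11 imprinted genes were higher and 4 lower. Such a p was found for 2997 of all 15399 tested genes, both directions together. All 9 called genes had both mutant libraries above both wild types, and so did 16 of the 32 tested genes, while 8 had both mutants below. Over all tested genes the share was 25.8% in each direction. Of the 38 genes 18 overlap another gene of the annotation, and since strand use in counting is not stated, the values of these 18 are uncertain. No count is read as support, because the genes were listed with these differences known. Among the p-values of the authors' deposited table, those of 6 of the 38 genes were under 0.05 (Meg3, Rian, Nnat, Peg10, H19 and Mirg), as were 1.83% of all 22770. The 9 calls rested on all 4 libraries: without any 1 of them no imprinted gene passed when the same genes were tested, and when the filter was read over the 3 libraries left, 6 passed without mutant library 1, 3 without mutant library 2, 1 without wild-type library 1 and 0 without wild-type library 2. With no filter on low values 1 gene passed (Meg3), and without the mean-variance trend 0 did. All 9 fold changes stayed above 0 under every one of these settings.

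**Figure D1:**
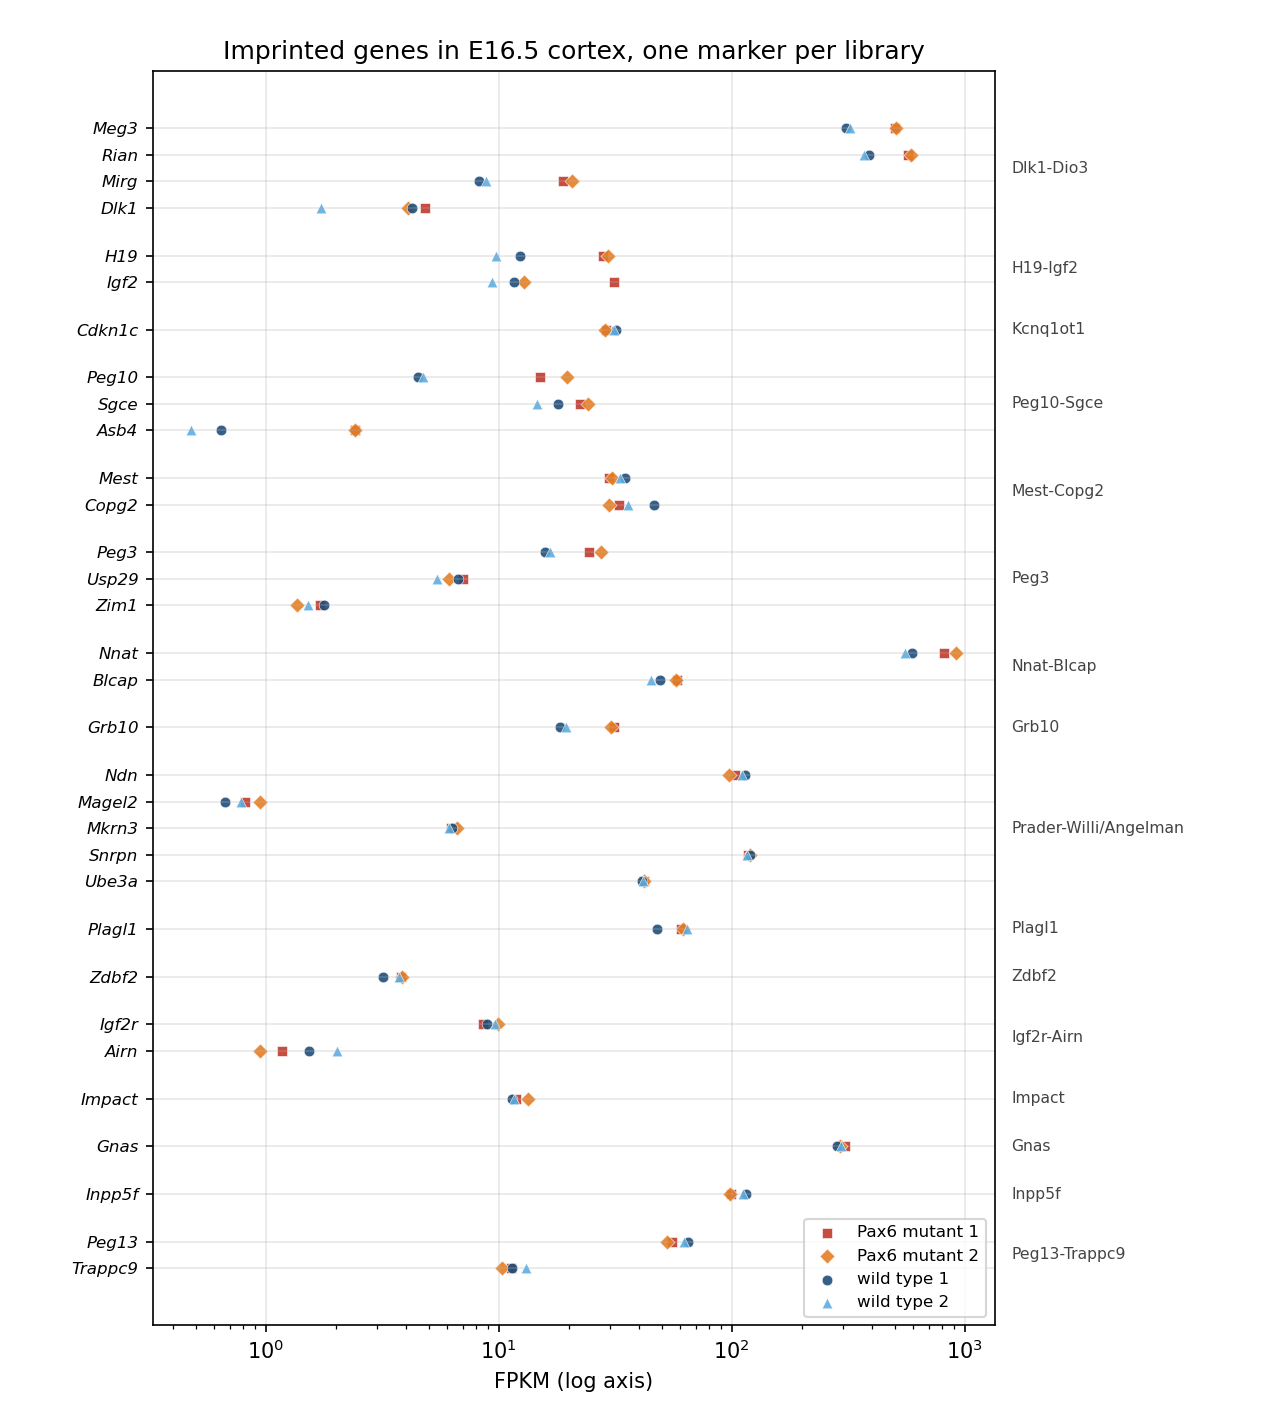
FPKM on a log axis of the 32 tested imprinted genes, grouped by cluster, with squares and diamonds for Pax6 mutant libraries 1 and 2 and circles and triangles for wild-type libraries 1 and 2. The genes span about 3 orders of magnitude, from Magel2 under 1 FPKM to Nnat at 814 and 920 FPKM in the mutants and 594 and 554 FPKM in the wild types.

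**Figure D2:**
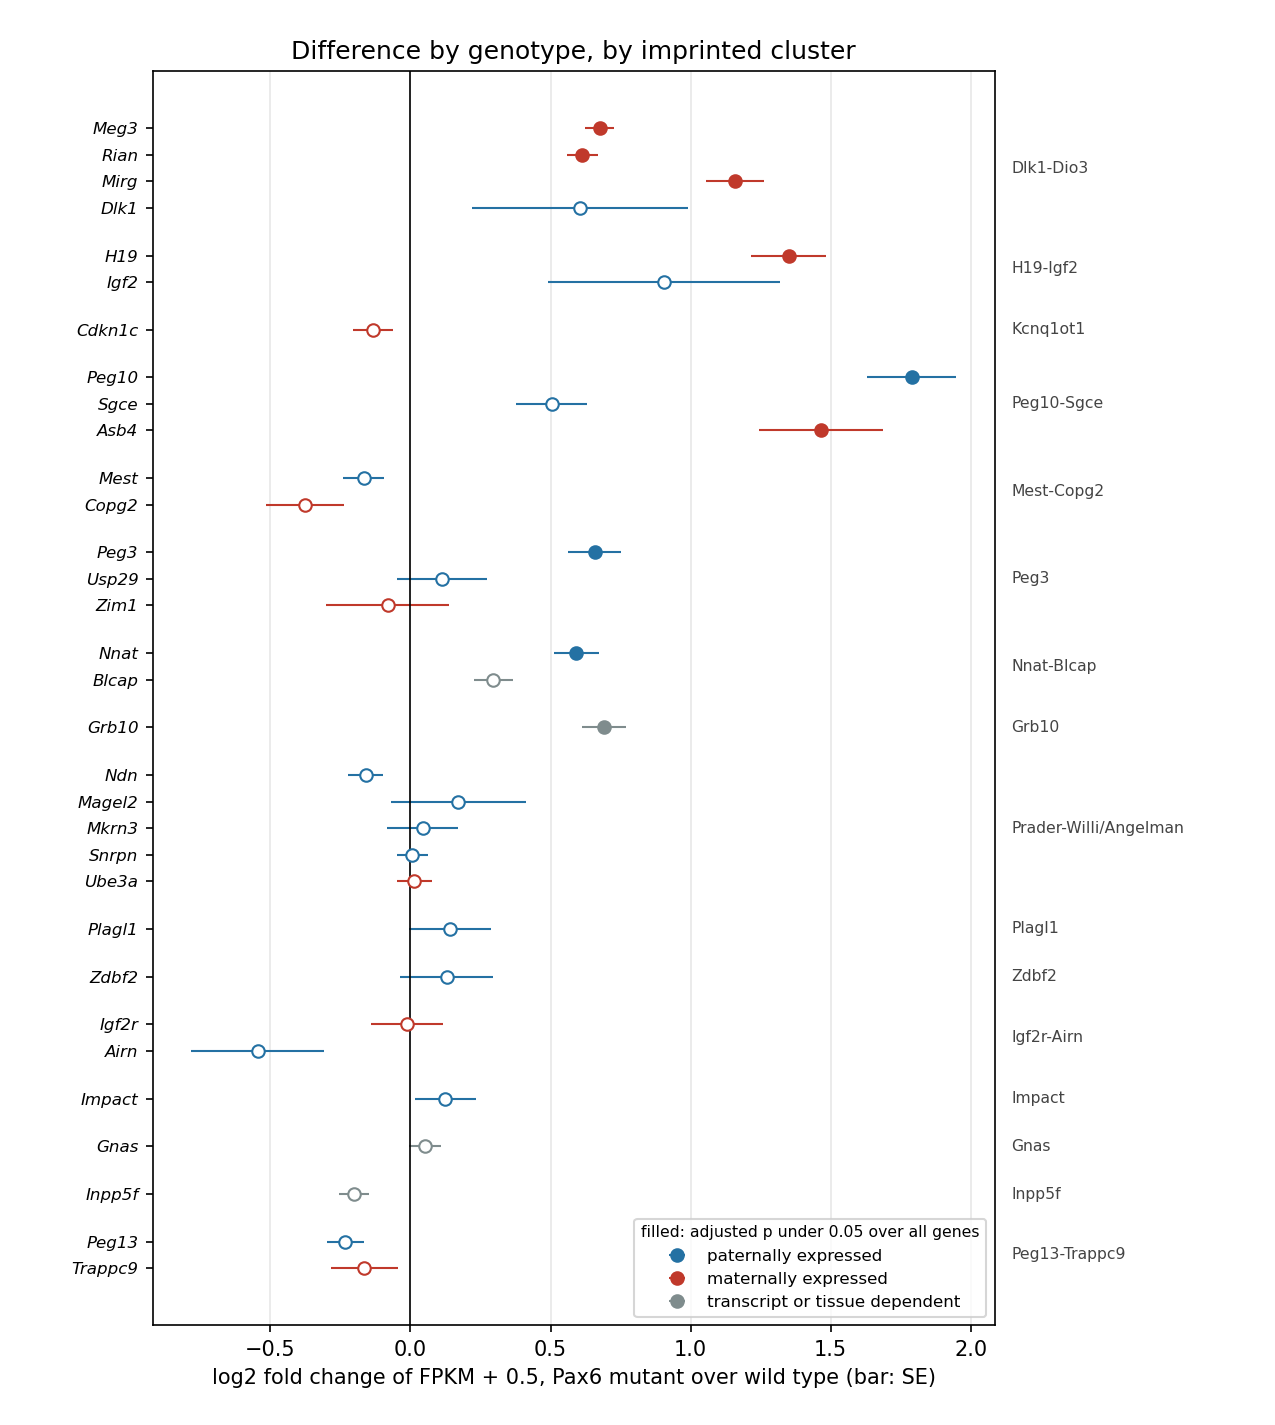
Log2 fold change of FPKM + 0.5, Pax6 mutant over wild type, with its SE, for the same genes, coloured by the parental copy known to be expressed in mouse and filled where the gene was called. Filled points lie in the Dlk1-Dio3, H19-Igf2, Peg10-Sgce, Peg3, Nnat-Blcap and Grb10 clusters, and the 5 Prader-Willi/Angelman genes lie between -0.16 and 0.17.

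Genes known as maternally and as paternally expressed were found on both sides of 0. The parental class is background knowledge of mouse imprinting and was not measured. Of 11 tested maternally expressed genes 5 rose (Meg3, Rian, Mirg, H19 and Asb4), 0 fell, 6 fold changes lay above 0 and the median log2 fold change was 0.014. Of 17 tested paternally expressed genes 3 rose (Peg10, Peg3 and Nnat), 0 fell, 13 fold changes lay above 0 and the median was 0.13. Of 4 genes whose imprint depends on the transcript or tissue (Blcap, Grb10, Gnas and Inpp5f) Grb10 rose. The median over all tested genes was 0.00062, with 2.02% called higher and 1.46% lower. Meg3, Rian and Mirg lie in the same cluster and are known to be transcribed in a row, so they are not separate loci. Whether the classes differ was not tested, since the same contrast was in view when the genes were listed.

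The Dlk1-Dio3 cluster on chromosome 12 held 3 of the 9 risen genes, all of them long noncoding RNAs of the maternal copy. Transcribed on 1 strand from Meg3 through Rian to Mirg, these RNAs are known as hosts of small RNAs: Rian of C/D box snoRNAs, and Mirg of a large group of microRNAs. RefSeq (GRCm38.p6) places 3 mature microRNAs within Meg3, 6 within Rian and 26 within Mirg, on the same strand. Mature microRNAs were not measured in these libraries. At least 1 mature sequence from each called host, H19 included, is shown because it is what the host RNA carries, with the seed (bases 2 to 8) in capitals. Among the 45 mature sequences on the same strand within imprinted genes, 1 seed was shared, by miR-453 and miR-496a-5p, both within Mirg.
miR-770-5p: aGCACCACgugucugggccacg
miR-370-3p: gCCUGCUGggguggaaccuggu
miR-134-5p: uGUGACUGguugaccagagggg
miR-410-3p: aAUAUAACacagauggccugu
miR-453: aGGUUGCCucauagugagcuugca
miR-496a-5p: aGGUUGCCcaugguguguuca
miR-675-5p: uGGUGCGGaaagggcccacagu
Here miR-770-5p lies within Meg3, miR-370-3p within Rian, miR-134-5p, miR-410-3p, miR-453 and miR-496a-5p within Mirg, and miR-675-5p within H19.

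Meg3 (ENSMUSG00000021268, chr12:109541001-109571726, plus strand) was 501 and 508 FPKM in the mutants and 311 and 321 FPKM in the wild types. Its log2 fold change was 0.68 (SE 0.05, limma adjusted p = 0.0120). Rian (ENSMUSG00000097451, chr12:109603940-109661716, plus strand) was 568 and 589 FPKM in the mutants and 387 and 369 FPKM in the wild types, a log2 fold change of 0.61 (SE 0.06, adjusted p = 0.0164). In both genes each mutant library lay above each wild type with a wide gap. Meg3 overlaps Gm26906 on the other strand and Rian overlaps Gm26945 on the same strand, so how fragments were shared between them is uncertain. Mirg (ENSMUSG00000097391, chr12:109729764-109749460, plus strand) was 18.9 and 20.6 FPKM in the mutants and 8.25 and 8.86 FPKM in the wild types, a log2 fold change of 1.16 (SE 0.10, adjusted p = 0.0160). The ratio of Mirg to Rian was 0.0333 and 0.0349 in the mutants and 0.0213 and 0.0240 in the wild types, while that of Meg3 to Rian was 0.882 and 0.863 in the mutants and 0.802 and 0.869 in the wild types. Mirg therefore stood higher relative to Rian in the mutants, while the ratio of Meg3 to Rian overlapped between genotypes.

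The paternally expressed genes of the cluster were low. Dlk1, a transmembrane relative of the Notch ligands, was 4.85 and 4.08 FPKM in the mutants and 4.26 and 1.72 FPKM in the wild types. Those ranges overlapped, with wild-type library 2 the lowest (log2 fold change 0.61, SE 0.39, adjusted p = 0.461). The log2 fold change of Dlk1 was 1.16 without wild-type library 1 and 0.06 without wild-type library 2. Rtl1, a gene derived from a retrotransposon, was 0.240 and 0.342 FPKM in the mutants and 0.334 and 0.264 FPKM in the wild types. Dio3, which codes for the deiodinase that inactivates thyroid hormone, was 0 and 0.285 FPKM in the mutants and 0.154 and 0 FPKM in the wild types. Both were under the filter. The nearest tested protein-coding genes outside the cluster and the list of other imprinted genes, Wdr25 and Ppp2r5c, had log2 fold changes of -0.09 and -0.04 and were not called. Begain, an imprinted gene of that list nearer to Dlk1 than Wdr25, had 0.13 and was not called either.

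**Figure D3:**
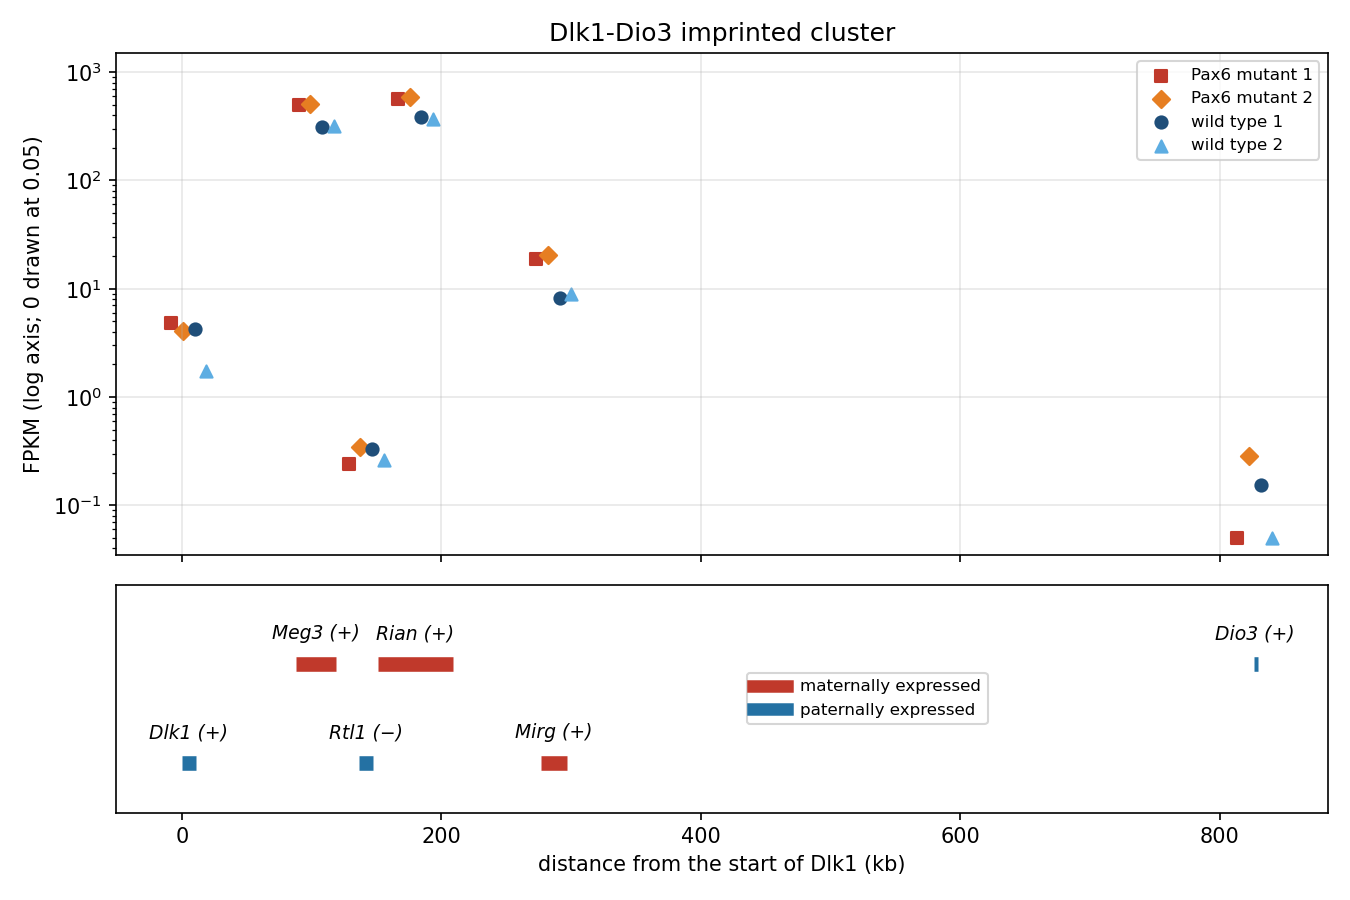
The Dlk1-Dio3 cluster: FPKM in each library (upper panel, log axis, markers set side by side around the middle of the gene and 0 drawn at 0.05) above the annotated gene spans (lower panel, kb from the start of Dlk1, red for maternally and blue for paternally expressed genes). Meg3, Rian and Mirg have both mutants above both wild types, whereas Dlk1, Rtl1 and Dio3 do not.

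The promoter of Meg3 is shown because the 3 RNAs that rose are known to be transcribed in a row from it, and because it holds TGCCGC, the hexamer bound by ZFP57, a zinc finger protein that protects methylation imprints. The windows of the downstream Meg3 start (chr12:109545148-109545447) and of Rian and Mirg hold no TGCCGC. The window shown is 300 bases long and covers the upstream RefSeq start of Meg3 (GRCm38.p6, chr12:109540746-109541045, plus strand). Capitals mark TGCCGC on either strand, which does not overlap itself.
Meg3 promoter: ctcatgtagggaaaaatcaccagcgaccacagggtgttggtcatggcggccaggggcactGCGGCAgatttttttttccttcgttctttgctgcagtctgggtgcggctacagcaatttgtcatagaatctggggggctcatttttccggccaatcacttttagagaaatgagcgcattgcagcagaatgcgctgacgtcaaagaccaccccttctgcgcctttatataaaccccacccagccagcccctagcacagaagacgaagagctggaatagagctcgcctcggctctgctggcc
Of the 39 listed genes 30 had a window in RefSeq, and 11 of these held the hexamer on either strand in at least 1 window, Snrpn and Snurf in a shared one. Of all 27025 genes with a window 13.1% did. Genes with several windows have more room for a match. By window, 12 of the 45 windows of the listed genes held it, beside 11.6% of all 32851 windows. Some of the 45 overlap each other. The match is a description of letters and not a site of binding. Zfp57 RNA itself was 308 and 337 FPKM in the mutants and 263 and 257 FPKM in the wild types, a log2 fold change of 0.31 that did not pass (adjusted p = 0.0808).

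H19 and Igf2 lie 72.6 kb apart on chromosome 7 and share enhancers, H19 as a noncoding RNA of the maternal copy and Igf2 as a growth factor gene of the paternal copy. H19 (ENSMUSG00000000031, chr7:142575529-142578143, minus strand) was 28.1 and 29.5 FPKM in the mutants and 12.4 and 9.76 FPKM in the wild types. Its log2 fold change was 1.35 (SE 0.13, adjusted p = 0.0197). The mutants were close to each other and far above both wild types. Igf2 (ENSMUSG00000048583) was 31.1 and 12.8 FPKM in the mutants and 11.7 and 9.35 FPKM in the wild types, so mutant library 1 alone stood well above the rest. The log2 fold change was 0.90 (SE 0.41, adjusted p = 0.319), and in the authors' deposited table the ratio of mutant to wild type was 2.09 with a p of 0.0561. The ratio of Igf2 to H19 was 1.11 and 0.434 in the mutants and 0.945 and 0.958 in the wild types, so mutant library 2 had the lowest.

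Igf2 and the meningeal and fibroblast markers were both highest in mutant library 1, whereas H19 was about equal in the mutants. Relative to the wild-type mean, the summed markers were 6.56 and 1.69 in the mutants, Igf2 was 2.96 and 1.22, and H19 was 2.54 and 2.67. Of the 9 markers 7 passed the filter, all 7 had fold changes above 0 and 0 were called. Col1a1 and Slc6a13 passed it only through the mutants, so the filter fixed their direction. Among all 15399 tested genes 7715 fold changes lay above 0. Col3a1, Col1a2 and Dcn, which code for fibrillar collagens and the matrix proteoglycan decorin, were 8.09, 7.63 and 5.45 FPKM in mutant library 1 and 1.94, 1.51 and 1.34 FPKM in mutant library 2. In wild-type libraries 1 and 2 Col3a1 was 1.34 and 1.33 FPKM, Col1a2 was 0.739 and 0.509 FPKM, and Dcn was 0.932 and 0.141 FPKM. Endothelial sums were 1.48 and 1.16 times the wild-type mean in the mutants and pericyte sums 1.32 and 1.16 times. The part of these cells in the Igf2 and H19 values was not tested. Without mutant library 1 the log2 fold change of Igf2 was 0.28, and without mutant library 2 it was 1.53, which passed when the filter was read over the libraries left (adjusted p = 0.0483). The log2 fold change of H19 ran from 1.19 to 1.51 over all settings.

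**Figure D4:**
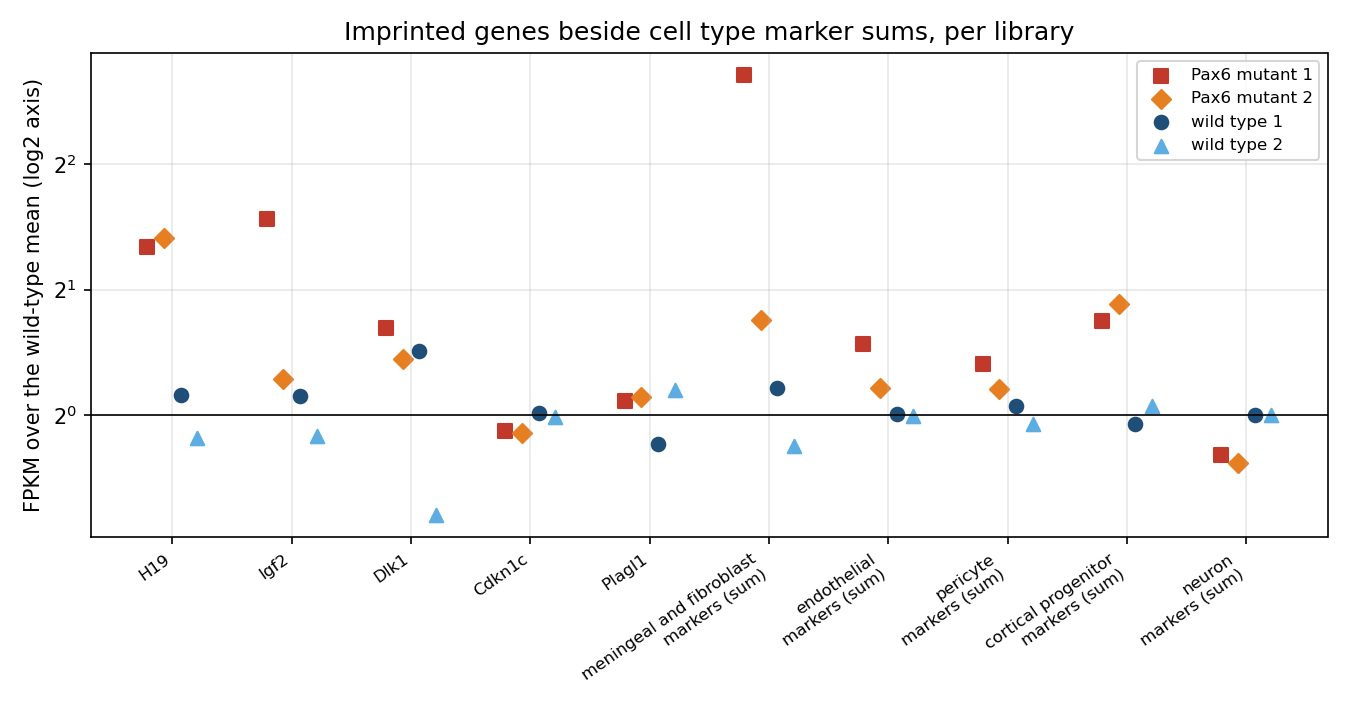
FPKM divided by the wild-type mean on a log2 axis for 5 imprinted genes and for the summed markers of 5 cell types, with 1 marker per library. H19 lies at 2.54 and 2.67 in the mutants, whereas Igf2 at 2.96 and 1.22 and the meningeal and fibroblast sum at 6.56 and 1.69 are highest in mutant library 1.

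Farther along chromosome 7, the Kcnq1ot1 cluster had no called member. Cdkn1c, which codes for the cell cycle inhibitor p57Kip2, was 28.9 and 28.5 FPKM in the mutants and 31.9 and 31.1 FPKM in the wild types. Both mutants were slightly below both wild types (log2 fold change -0.13, SE 0.07, adjusted p = 0.373). Kcnq1ot1, the noncoding RNA that silences the cluster on the paternal copy, lay between 0.319 and 0.393 FPKM in all libraries. Slc22a18, a transporter gene, was 0.301 and 0.164 FPKM in the mutants and 0.374 and 0 FPKM in the wild types. Kcnq1ot1 and Slc22a18 were under the filter, and Kcnq1ot1 overlaps Kcnq1 on the other strand.

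The largest differences among the imprinted genes were in the Peg10-Sgce cluster on chromosome 6. Peg10, a gene derived from a retrotransposon and required for placental growth, and Sgce, which codes for epsilon-sarcoglycan, are paternally expressed and start 99 bases apart on opposite strands. Peg10 (ENSMUSG00000092035, chr6:4747306-4760517, plus strand) was 15.1 and 19.6 FPKM in the mutants and 4.51 and 4.74 FPKM in the wild types. Both mutants were over 3 times either wild type, and the log2 fold change was 1.79 (SE 0.16, adjusted p = 0.0159). Sgce (ENSMUSG00000004631) was 22.3 and 24.1 FPKM in the mutants and 17.99 and 14.6 FPKM in the wild types. Its libraries did not overlap between genotypes, but the log2 fold change of 0.50 (SE 0.13) did not pass (adjusted p = 0.122). The ratio of Peg10 to Sgce was 0.676 and 0.816 in the mutants and 0.251 and 0.326 in the wild types.

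Asb4, a maternally expressed gene for an ankyrin repeat protein with a SOCS box, starts 622.9 kb from the end of Peg10. It was 2.42 FPKM in both mutants and 0.644 and 0.479 FPKM in the wild types, a log2 fold change of 1.46 (SE 0.22, adjusted p = 0.0407). Wild-type library 2 was under 0.5 FPKM, so without the mutants Asb4 would not have passed the filter. At the alternative filter of 1 FPKM it passed only through the mutants, so that filter fixed its direction. Between Peg10 and Asb4 lie 3 tested genes of the list of other imprinted genes that did not pass. Ppp1r9a had a log2 fold change of 0.14, Pon3 0.16 and Pon2 0.23. On the other side, beyond Sgce, Casd1 had 0.24 and did not pass. Col1a2, the collagen gene that lies beyond Casd1 and stands among the fibroblast markers, had 1.86 with an SE of 0.67 (adjusted p = 0.228), and its value was chosen for mention after it was seen. Pdk4, next after Asb4, had 0.24.

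The Mest-Copg2 cluster lies elsewhere on chromosome 6, and its fold changes were below 0. Mest, a hydrolase gene of the paternal copy, was 29.8 and 30.6 FPKM in the mutants and 34.9 and 33.0 FPKM in the wild types (log2 fold change -0.17, adjusted p = 0.295). Copg2, which codes for a subunit of the COPI coat, was 32.7 and 29.8 FPKM in the mutants and 46.3 and 35.8 FPKM in the wild types (-0.38, adjusted p = 0.236). The log2 fold change of Copg2 was -0.19 without wild-type library 1 and -0.56 without wild-type library 2. Both mutants were below both wild types in each gene, and neither was called. The 2 genes overlap at their ends on opposite strands and strand use in counting is not stated, so their values are uncertain.

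In the Peg3 cluster on chromosome 7, Peg3 rose and its head-to-head neighbour Usp29 was not called. Peg3 (ENSMUSG00000002265, chr7:6703892-6730431, minus strand), a large zinc finger protein gene, was 24.5 and 27.3 FPKM in the mutants and 15.9 and 16.6 FPKM in the wild types. Its log2 fold change was 0.66 (SE 0.09, adjusted p = 0.0359). Usp29, a deubiquitinase gene, was 7.02 and 6.15 FPKM in the mutants and 6.70 and 5.44 FPKM in the wild types, and the ranges overlapped (0.11, SE 0.16, adjusted p = 0.762). Zim1, a zinc finger gene of the maternal copy, was 1.72 and 1.36 FPKM in the mutants and 1.78 and 1.52 FPKM in the wild types. The ratio of Peg3 to Usp29 was 3.49 and 4.45 in the mutants and 2.37 and 3.05 in the wild types. Usp29 overlaps Zim3 on the other strand, so its value and this ratio are uncertain. Zim3 was 7.23 and 6.74 FPKM in the mutants and 8.13 and 8.51 FPKM in the wild types.

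The start region of Peg3 is shown because both paternally expressed genes begin in it: the RefSeq windows of Peg3 and Usp29 share 263 bases. It is given on the minus strand, in the direction of Peg3 (GRCm38.p6, chr7:6730370-6730669), holds 13 CpG dinucleotides and no TGCCGC, and so has no capitals.
Peg3 promoter: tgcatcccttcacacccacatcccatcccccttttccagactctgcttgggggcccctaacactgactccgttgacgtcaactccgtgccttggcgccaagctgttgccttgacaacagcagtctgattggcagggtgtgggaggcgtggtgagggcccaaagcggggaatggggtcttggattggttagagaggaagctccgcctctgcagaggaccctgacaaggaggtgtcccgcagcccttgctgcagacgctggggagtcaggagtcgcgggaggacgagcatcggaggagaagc

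Nnat, which codes for neuronatin, a small membrane protein of the endoplasmic reticulum in neurons, was the most abundant of the imprinted genes. Nnat (ENSMUSG00000067786, chr2:157560078-157562522, plus strand) was 814 and 920 FPKM in the mutants and 594 and 554 FPKM in the wild types. Every mutant value exceeded every wild-type value, and the log2 fold change was 0.59 (SE 0.08, adjusted p = 0.0344). Blcap, within whose intron Nnat is known to lie, was 58.5 and 57.7 FPKM in the mutants and 49.3 and 45.2 FPKM in the wild types. Its log2 fold change of 0.30 (SE 0.07) did not pass (adjusted p = 0.111), and since the genes overlap on opposite strands both values are uncertain. Genes on both sides had fold changes above 0 without passing: Src 0.26 (adjusted p = 0.187) and Ctnnbl1 0.46 (adjusted p = 0.0737). The Nnat promoter window (chr2:157559828-157560127, plus strand) holds 17 CpG dinucleotides and 1 TGCCGC, which lies on the other strand and is in capitals.
Nnat promoter: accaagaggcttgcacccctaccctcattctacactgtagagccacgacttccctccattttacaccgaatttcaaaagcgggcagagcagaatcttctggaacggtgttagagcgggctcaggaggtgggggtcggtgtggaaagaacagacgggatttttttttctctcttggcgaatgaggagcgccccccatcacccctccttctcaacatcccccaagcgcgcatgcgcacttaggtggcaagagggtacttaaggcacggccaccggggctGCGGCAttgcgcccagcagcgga

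Grb10 on chromosome 11 codes for an adaptor that restrains insulin and IGF receptor signalling, and in mouse it is known to be expressed from the paternal copy in neurons and from the maternal copy in most other cells. Grb10 (ENSMUSG00000020176, chr11:11930508-12038683, minus strand) was 31.4 and 30.4 FPKM in the mutants and 18.4 and 19.5 FPKM in the wild types. Its log2 fold change was 0.69 (SE 0.08, adjusted p = 0.0262), and both genotypes were tight. The FPKM value covers all annotated exons, so neuronal and other transcripts were not separated. Fignl1, the flanking gene 121.5 kb away, chosen for mention after its value was seen, was 10.9 and 10.5 FPKM in the mutants and 6.80 FPKM in both wild types (0.62, adjusted p = 0.0588). The promoter window of the upstream Grb10 start (chr11:12037371-12037670, minus strand) is shown for its 45 CpG dinucleotides, the most among the windows of the 30 listed genes that have one, and it holds 1 TGCCGC on the other strand. The window of the downstream start held 9 CpG and no hexamer.
Grb10 promoter: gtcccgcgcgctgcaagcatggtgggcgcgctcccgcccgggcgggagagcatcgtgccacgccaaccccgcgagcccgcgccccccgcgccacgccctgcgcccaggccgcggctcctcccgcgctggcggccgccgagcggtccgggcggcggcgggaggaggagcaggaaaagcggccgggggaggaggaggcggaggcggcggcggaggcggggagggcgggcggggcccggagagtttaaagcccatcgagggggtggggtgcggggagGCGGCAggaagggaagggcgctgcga

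The Prader-Willi/Angelman domain on chromosome 7 showed no called difference. Its genes are abundant in neurons, and loss of the paternal or of the maternal copy causes the 2 human syndromes it is named for. Snrpn, which codes for the splicing protein SmN, was 117 and 119.6 FPKM in the mutants and 119.8 and 116 FPKM in the wild types (log2 fold change 0.01, SE 0.05). Ube3a, the ubiquitin ligase gene of the maternal copy, was 41.9 and 41.99 FPKM in the mutants and 41.3 and 41.7 FPKM in the wild types (0.01, SE 0.06). Ube3a overlaps Snhg14 on the other strand, so its value is uncertain. Both genes thus differed by less than 1 SE. Ndn, a MAGE family gene of postmitotic neurons, was 104 and 97.2 FPKM in the mutants and 114 and 110.3 FPKM in the wild types (-0.16, SE 0.06, adjusted p = 0.253). Mkrn3, a RING finger gene, was 6.22 and 6.61 FPKM in the mutants and 6.33 and 6.09 FPKM in the wild types. Magel2, another MAGE gene, was 0.811 and 0.946 FPKM in the mutants and 0.668 and 0.782 FPKM in the wild types and was the lowest gene to pass the filter. Snurf was listed at or near 0 in every library. It shares its transcript with Snrpn, so the values of both are uncertain.

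Among the remaining clusters no gene was called. Plagl1, a zinc finger gene said to regulate other imprinted genes, was 60.5 and 61.9 FPKM in the mutants and 47.7 and 64.4 FPKM in the wild types, with the wild types spanning the mutants. Zdbf2 was 3.79 and 3.84 FPKM in the mutants and 3.18 and 3.74 FPKM in the wild types. Impact, an inhibitor of the Gcn2 stress kinase pathway, was 11.8 and 13.4 FPKM in the mutants and 11.4 and 11.6 FPKM in the wild types. The log2 fold changes of these 3 genes were 0.14, 0.13 and 0.12.

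Igf2r, which codes for the receptor that clears IGF2, was 8.54 and 9.90 FPKM in the mutants and 8.93 and 9.64 FPKM in the wild types (log2 fold change -0.01, SE 0.13, and 0.01 after rescaling to TPM). Airn, the noncoding RNA that runs against Igf2r from the paternal copy, was 1.17 and 0.945 FPKM in the mutants and 1.53 and 2.03 FPKM in the wild types. Both mutants lay below both wild types (-0.55, SE 0.24, adjusted p = 0.295), and the genes overlap, so the values are uncertain. Gnas, the stimulatory G protein alpha subunit gene, was 307 and 292 FPKM in the mutants and 284 and 293 FPKM in the wild types, and its antisense RNA Nespas was under the filter at 0.392 and 0.250 FPKM in the mutants and 0.355 and 0.650 FPKM in the wild types.

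Inpp5f, a phosphoinositide phosphatase gene with an imprinted short transcript in brain, was 99.1 and 97.9 FPKM in the mutants and 115 and 111 FPKM in the wild types (-0.20, SE 0.05, adjusted p = 0.142). Peg13, a noncoding RNA in an intron of Trappc9, was 55.4 and 52.9 FPKM in the mutants and 65.0 and 62.3 FPKM in the wild types (-0.23, SE 0.06, adjusted p = 0.148). Trappc9, a vesicle trafficking gene, was 11.3 and 10.4 FPKM in the mutants and 11.4 and 13.03 FPKM in the wild types (-0.16, adjusted p = 0.518). In all 3 genes both mutants were below both wild types without passing, and Peg13 and Trappc9 overlap each other.

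Ordered by their mean level in the mutants, the most abundant genes were Nnat, Rian, Meg3 and Gnas, at 867, 579, 505 and 299 FPKM. In the wild types the order was the same, at 574, 378, 316 and 288 FPKM. Snrpn, Inpp5f and Ndn followed at 98.5 to 118 FPKM in the mutants and 112 to 118 FPKM in the wild types, where Inpp5f and Ndn did not differ beyond their spread. The values nearest the filter were those of Nespas just under it, with a second-highest library of 0.392 FPKM, and of Magel2 just over it, at 0.811 FPKM.

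Other imprinted genes, taken from a list of 46 that are imprinted in some mouse tissue, had 30 tested members. Of these Smoc1 rose and 0 fell, beside 2.02% higher and 1.46% lower over all tested genes, so the count is near the background. The median log2 fold change was 0.03. Smoc1, a secreted calcium-binding matrix protein gene, was 18.7 and 20.4 FPKM in the mutants and 5.92 and 5.09 FPKM in the wild types (1.74, SE 0.12, adjusted p = 0.00994). Dcn is in that list and among the fibroblast markers. The most abundant, Nap1l4 and H13, had log2 fold changes of 0.01 and 0.02.

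Regulators of imprints mostly had fold changes above 0. Of 23 tested DNA methyltransferases, TET enzymes, zinc finger proteins and partners, Uhrf1 rose and 0 fell, 21 fold changes lay above 0 and the median was 0.18. Over all 15399 tested genes 7715 fold changes lay above 0 and 2.02% of genes were called higher, and nothing is read from the 1 call. Uhrf1, which brings the maintenance methyltransferase to replicating DNA, was 25.1 and 29.9 FPKM in the mutants and 15.1 and 13.5 FPKM in the wild types (0.91, SE 0.12, adjusted p = 0.0336). Trim28, the corepressor that acts with ZFP57, was 177 and 176 FPKM in the mutants and 160 FPKM in both wild types (0.15, adjusted p = 0.210).

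Genes flanking the clusters were read from the same fit. Of 30 nearest tested protein-coding genes outside the imprinted members and the longer list, 0 rose and 1 fell, and the median log2 fold change was -0.04. With 2.02% of all tested genes called higher and 1.46% lower, these counts are near the background. The gene that fell was Col22a1, a collagen gene before Trappc9, at 0.465 and 0.270 FPKM in the mutants and 2.15 and 1.90 FPKM in the wild types (-1.55, SE 0.25, adjusted p = 0.0466). Col22a1 reached 0.5 FPKM only in the wild types, so the filter fixed its direction. The most abundant flanking gene, Eef1b2 near Zdbf2, had -0.13. The flanking genes lay up to 4219.0 kb from the cluster, so they differ in how local they are.

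**Figure D5:**
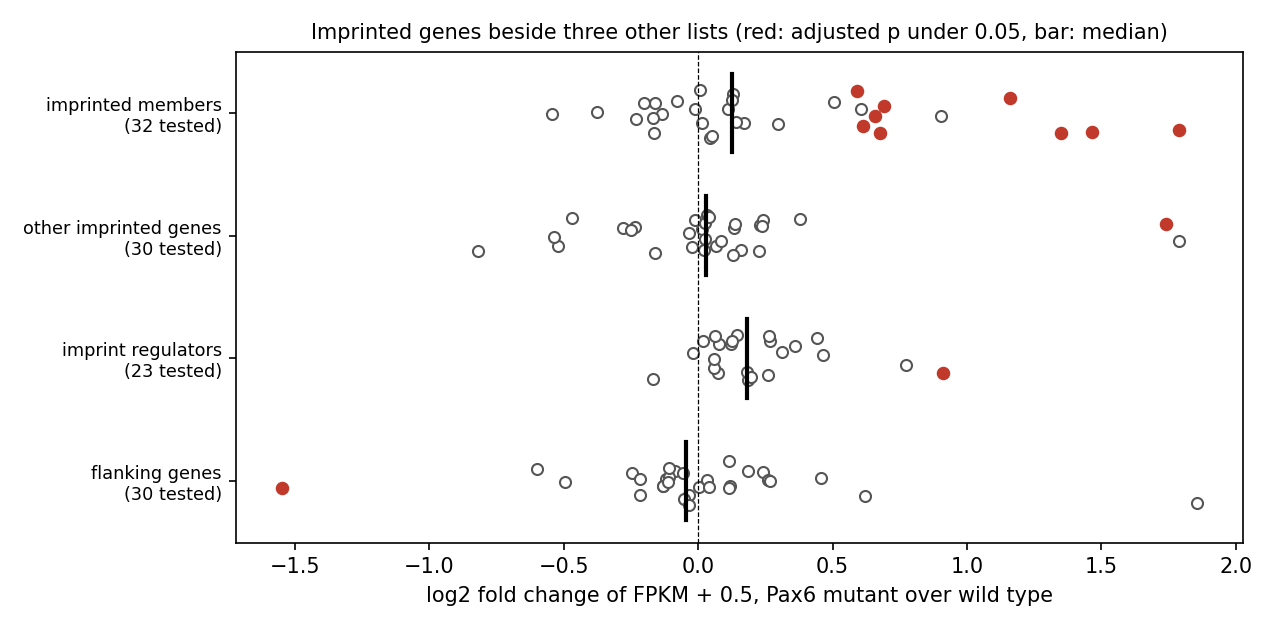
Log2 fold change of FPKM + 0.5, Pax6 mutant over wild type, of each tested imprinted gene and of 3 other lists, with red points for called genes and a vertical bar at each median. The medians are 0.13 for the 32 imprinted genes, 0.03 for 30 other imprinted genes, 0.18 for 23 imprint regulators and -0.04 for 30 flanking genes.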

How the data were processed

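The authors deposited 1 table with an FPKM value per gene and library, together with their group FPKM, a ratio (fold) of mutant to wild type and a p-value, per the file headers. The test behind the deposited p-value is not stated. Per the submitters' processing notes, edgeR, Cufflinks 2.2.1 and TopHat2 2.0.9 were among the tools, and mm10 and GRCm38.p4 are listed as builds, with no role given for any of them. Strand use and scaling between libraries beyond FPKM are not given in the sources used here.

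A gene was kept when 2 or more of the 4 libraries reached 0.5 FPKM. Genotype was tested on log2(FPKM + 0.5), which understates the change of low genes, with limma 3.58.1 in R 4.3.3 (mean-variance trend, two-sided, Benjamini-Hochberg adjustment over all tested genes, n = 2 for each genotype). The script was also run on simulated data with known fold changes and independent noise for each gene and library. That run does not bear on how the calls depend on single libraries. Members, parental classes and lists were chosen with earlier results of these data known. All members with a row are named. From the other lists each called gene and at most 2 abundant ones are named, and from marker lists at most 3 abundant ones. Further named markers and other named neighbours were picked after their values were seen. Spans are from GENCODE M21 (GRCm38), counted from 1, and sequences from RefSeq (GRCm38.p6), which is the same assembly. Of the 38 genes, 18 overlap another annotated gene of the table.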

Additional observations from a re-analysis of the deposited data

How the results depend on the processing

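The 9 fold changes of called genes stayed above 0 under all alternatives, but the calls did not. Pseudocounts of 0.1 and 1, a filter at 1 FPKM, rescaling to TPM and median of ratios scaling each gave 9 calls. With no filter 61 genes passed over the whole table, 40 of them higher, with 1 imprinted gene among them. Without the mean-variance trend 54 genes passed, 34 of them higher, with 0 imprinted genes. With the same genes tested, leaving out 1 library gave 7 to 59 genes, 6 to 31 of them higher, and 0 imprinted genes. With the filter read over the libraries left, added after the data were seen, 345 genes (180 higher, 6 imprinted) passed without mutant library 1, 145 (76 higher, 3 imprinted) without mutant library 2, 61 (47 higher, 1 imprinted) without wild-type library 1 and 47 (34 higher, 0 imprinted) without wild-type library 2. In such fits the lone library is assumed to vary like the other group. Adjusted p of the 9 genes ranged up to 0.232, for Nnat. The maternal median was 0.034 after rescaling to TPM and 0.0087 to 0.089 with 1 library left out, with 0.040 without wild-type library 2. Igf2r had 0.0062 after rescaling to TPM, and with 1 library left out -0.11 to 0.089, with 0.040 without wild-type library 2. Zim1 had -0.21 to 0.046, Snrpn -0.017 to 0.032 (-0.0073 without mutant library 2), Plagl1 -0.074 to 0.36 and Usp29 -0.027 to 0.25. With the replicate number as a block 374 genes and 7 imprinted genes passed, without Nnat and Asb4. Nothing in the labels says that equal numbers pair the libraries, and the deviations of the libraries numbered 1 correlated at 0.049. The causes were not tested. The 6 genes under the filter were not tested, and FPKM gives no depth from which to say what could have been detected.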
